A study of Bos taurus with 2 samples.

Results

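In the autosomes of 2 bovine bone samples, 1452 CpG-dense windows of 1 kb were methylated at an intermediate level in both samples, out of 56742 dense windows that were read deeply enough (2.56%). A window was called dense where it held at least 40 CpG sites, and it was kept where at least 50 calls were made in each sample. The intermediate windows were those whose level, the methylated calls divided by all calls, lay from 35 to 60% in both bone samples. They were thus chosen by their measured levels, so these levels are given as a description and carry no test. Of the other dense windows, 21749 lay under 20% in both samples and 22775 lay over 60% in both. The remaining 10766 lay between these classes or fell into different classes in the 2 samples.

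CpG methylation in mammals is mostly near one of its extremes, being removed at active CpG islands and dense almost everywhere else. A window can read as intermediate where one parental copy is methylated and the other is not, as at the control regions of imprinted genes, where cells differ from each other, or where the window lies across the boundary between an unmethylated island and its methylated surroundings. Imprinted control regions acquire their mark in one parental germ line and keep it in all somatic tissues, so they are intermediate over their whole length. Clustered protocadherins, the adhesion proteins that give neurons distinct surfaces, are another known case, since each cell uses few of their many alternative promoters.

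The samples were whole-genome bisulfite sequencing (WGBS) libraries of bone, with paired-end reads, labelled as taken from female Holstein cattle. Both belonged to 1 group with no treatment, and they are called Bone 1 and Bone 2 here. No source used here says whether they came from the same animal, so the spread between them may be technical, and the bone and marrow cells that such tissue holds were not separated. WGBS converts unmethylated cytosines, so that each read over a CpG cytosine reports it as methylated or not, which is counted as 1 call. The 2 files held 582241763 and 440334436 calls, and the level over the autosomes was 72.4% in Bone 1 and 59% in Bone 2. The level of Bone 2 thus lay inside the range that defined the intermediate windows, near its upper limit, while that of Bone 1 lay above it. With Bone 2 alone 7745 dense windows lay in the range, and with Bone 1 alone 2628 did. The range was therefore less selective in Bone 2 than in Bone 1. The tissue label could only be set beside the methylation at the ends of marker genes, not beside expression. The dense windows at SP7, a regulator of bone-forming cells, lay at 1.38% and 9.80% in Bone 1 and at 8.55% and 11.4% in Bone 2. COL1A1, the main collagen of bone, lay at 1.88% and 2.60%. At RUNX2, another bone regulator, the one dense window lay at 91.9% and 73.3%. CD79A, a B cell gene, was at 0.380% and 0.531%, and the blood cell regulator SPI1 had windows at 84.0% and 82.0% and at 25.9% and 20.7%. BGLAP, PTPRC and CD3E had no dense window at their ends, so they could not be read.

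The calls of all intermediate windows together were 49.5% methylated in Bone 1 and 44.8% in Bone 2, or 47.1% ± 3.30 (SD, n = 2). Of the 1452 windows, 1044 were higher in Bone 1, with a median difference of 5.11 points. Bone 1 was also higher over the autosomes as a whole, at 72.4% against 59% in Bone 2. The share of all dense windows that were higher in Bone 1 was not counted, so the 1044 have no background. A window held a median of 49 CpG sites, with 946 calls in Bone 1 and 343.5 in Bone 2. This was 18.9 and 6.60 calls per site, close to the 19.9 and 6.64 of all dense windows. Their depth was thus near that of the other windows, and 3 of them (0.207%) were read at over 3 times the median depth in both samples, against 0.19% of all dense windows.

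**Figure D1:**
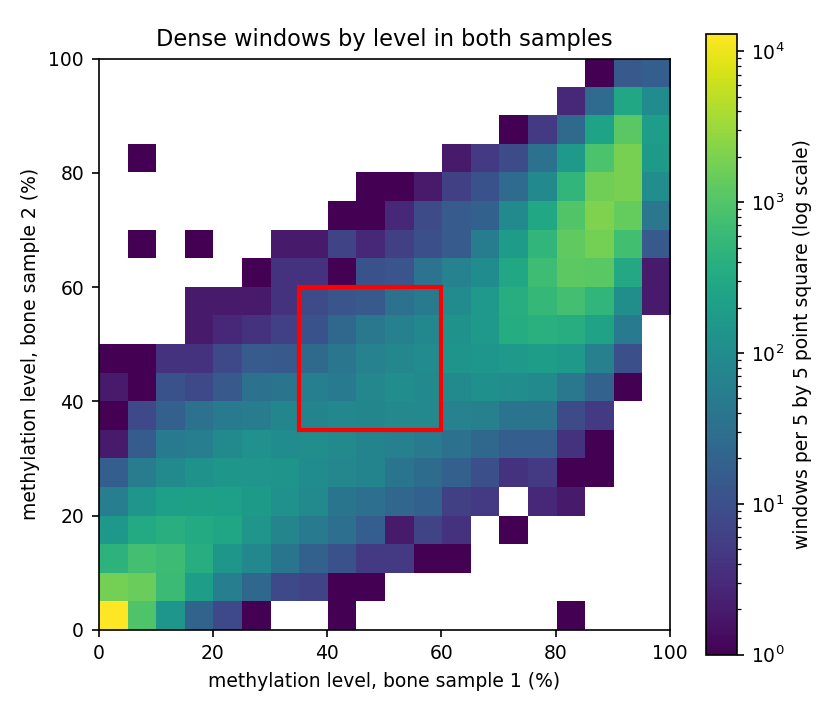
Number of dense windows, on a log colour scale, in squares of 5 by 5 percentage points of methylation level in Bone 1 (x axis) and Bone 2 (y axis); the red box marks 35 to 60% in both. The 1452 windows in the box lie between the 21749 windows under 20% in both samples and the 22775 over 60% in both.

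The limits of the range cut through a continuous scatter of levels. Nearest the lower limit in Bone 1, chr5:116361001-116362000 at 35.01% was taken and chr22:58281001-58282000 at 34.97% was not. At its upper limit the nearest were chr2:135591001-135592000 at 60%, inside, and chr5:113978001-113979000 at 60.02%, outside. In Bone 2 they were chr10:102436001-102437000 at 35% and chr8:63854001-63855000 at 34.98% at the lower limit, and chr25:41376001-41377000 at 60% and chr25:1836001-1837000 at 60.08% at the upper. No gap in the levels separated windows inside the box from those around it.

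How the calls were spread within a window was not part of the choice. The CpG sites of each window were split at the middle site, and the calls of the left and the right part were compared in each sample with Fisher's exact test (two-sided), with Benjamini-Hochberg adjustment over all 56742 dense windows. A window was called sloped where the adjusted p was under 0.05 and the parts differed by at least 20 percentage points in both samples in the same direction. It was called flat where they differed by less than 15 points in both. Of the 1452 windows, 796 (54.8%) were sloped, 235 (16.2%) were flat and 421 were neither. Among all dense windows 9.11% were sloped and 67.7% were flat. A window near 0 or 100% has little room for a slope, and 2.87% of the windows under 20% and 1.61% of those over 60% were sloped. Among the remaining 10766 windows, which were not matched to the intermediate ones in level, 31.4% were sloped and 32.6% were flat.

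Slopes found in 1 sample were seen in the other. Of 1007 windows sloped in Bone 1, 970 (96.3%) had the same direction in Bone 2 and 796 (79%) were sloped there too. Of 900 windows sloped in Bone 2, 873 (97%) had the same direction in Bone 1. Slopes that rose from left to right numbered 377 and those that fell numbered 419. Over all intermediate windows, sloped or not, 1274 (87.7%) changed in the same direction in both samples. Among all dense windows, 7404 (13%) were sloped in Bone 1 and 10189 (18%) in Bone 2. Of these, 5171 were sloped in both samples in the same direction, so shared slopes were not particular to intermediate windows. Shared direction alone was not counted over all dense windows, so the counts of 970, 873 and 1274 have no background. Calls made on 1 read are not independent of each other, so the p-values of these tests are too small. The counts of slopes called in both samples rest on them. The counts of 970 and 873 windows of shared direction rest on the p-values of the first sample only. The count of 1274 does not rest on them.

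**Figure D2:**
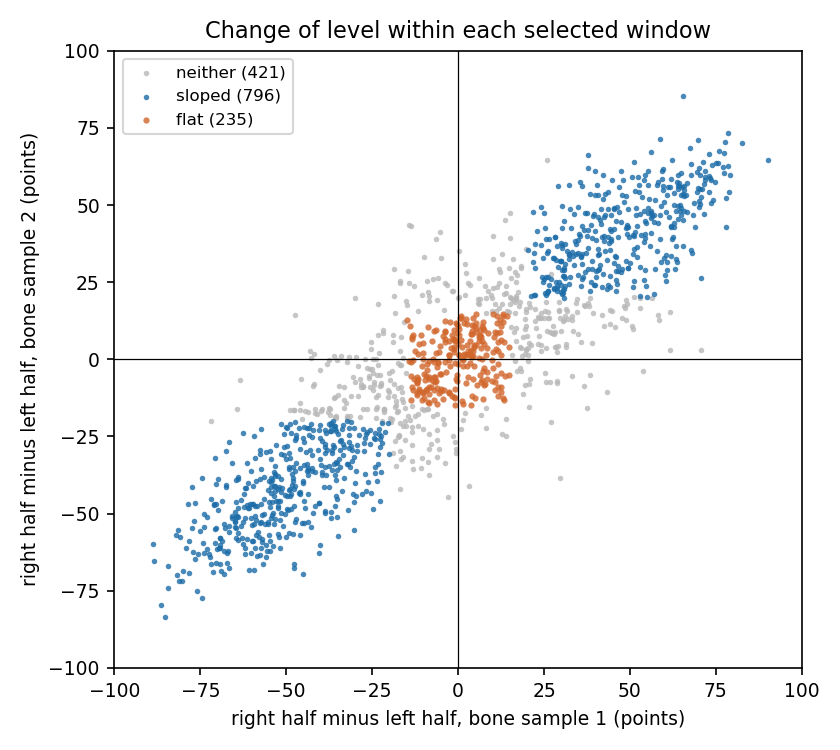
Level of the right part minus level of the left part, in percentage points, of each of the 1452 intermediate windows in Bone 1 (x axis) and Bone 2 (y axis), coloured by class. The 796 sloped windows (blue) fall along the diagonal, the 235 flat windows (orange) around the origin, and 421 windows are neither (grey).

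Positions are given as the files have them, for which the submitters' processing notes name the build ARS-UCD1.2, and a window is named by the nearest named gene within 20 kb in a gene table of ARS-UCD2.0. The steepest window lay at chr5:74918001-74919000, at FOXRED2, a gene of protein breakdown in the endoplasmic reticulum. Its left part was at 92.3% and its right part at 7.04% in Bone 1, and they were at 89.1% and 5.44% in Bone 2 (Fisher's exact test, adjusted p = 3.5e-112 in Bone 2). At TMEM185B, at chr2:71940001-71941000, the parts were at 92.5% and 5.96% in Bone 1 and at 87.3% and 7.73% in Bone 2 (Fisher's exact test, adjusted p = 1.9e-72 in Bone 2). Both windows thus ran from an almost fully methylated part to an almost unmethylated one, while their averages were 58.2% and 39.6% at FOXRED2 and 51.5% and 56.0% at TMEM185B. At LMOD1, which encodes an actin-binding protein of smooth muscle, a window at chr16:80576001-80577000 fell from 75.5% to 1.06% in Bone 1 and from 78.5% to 1.26% in Bone 2. At LRRC34, at chr1:97562001-97563000, the fall was from 87.2% to 2.84% and from 78.0% to 3.73%. A window at chr4:118322001-118323000, with no named gene within 20 kb, fell from 77.8% to 1.68% and from 75% to 0%. All 5 of the steepest windows fell from left to right, in both samples.

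The short stretches of sequence shown here are the longest runs of overlapping CpG contexts that the files spell out in the 5 steepest windows, on the plus strand, with each CpG in capitals. Each shows CpGs on 1 side of its window.
FOXRED2 window, chr5:74918814-74918826: cCGCGccCGgCGc
TMEM185B window, chr2:71940907-71940925: gCGgcCGggCGcCGgcCGg
LMOD1 window, chr16:80576727-80576744: tCGgCGgCGgCGCGgCGc
LRRC34 window, chr1:97562950-97562959: aCGcCGcCGc
window with no named gene, chr4:118322314-118322323: tCGacCGCGa
The FOXRED2 stretch was at 0% in both samples, over 67 and 46 calls. Of 148 and 20 calls in the TMEM185B stretch, 0.676% and 0% were methylated. The LMOD1 stretch was at 0% over 55 and 36 calls, and the LRRC34 stretch was at 0% of 53 calls and 2.78% of 36. These 4 stretches lay to the right of the centre of their window, on its low side. The chr4 stretch lay to the left of the centre, on the high side, and was at 84.9% of 126 calls and 78.8% of 33.

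The 796 sloped windows were chosen for parts that differ and were then turned so that the higher part lay to the right, so a rise across the window is given by the choice, and its levels are a description. In bins of 100 bp around the window centre, the pooled level of Bone 1 was 18.6% at 450 bp to the low side, 51.2% at 50 bp to the low side, 63.0% at 50 bp to the high side and 81.2% at 450 bp to the high side. In Bone 2 these levels were 17.8%, 44.5%, 55.2% and 69.2%. Outside the window, on the high side, the level stayed at 76.4 to 83.5% in Bone 1 out to 1450 bp, and on the low side it rose again to 45.0% at that distance.

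On the low side, the median level of the next window was 36.3% in Bone 1 (quartiles 6.36% and 70.4%) and 32.8% in Bone 2 (8.33% and 56.1%), and of the window after it 76.6% and 57.8%. On the high side, the next window was at a median of 83.3% and 64.8%. Both neighbours were read for 787 sloped windows. The high-side neighbour lay over 60% in Bone 1 and over 50% in Bone 2 for 672 of them (85.4%). The low-side neighbour lay under 20% in both samples for 282 (35.8%), and both held for 239 (30.4%). These shares were not counted for other dense windows, so no background stands beside them. A slope that joined a methylated neighbour to an unmethylated one, as at the edge of a CpG island wider than a window, was thus seen at 239 of the 787 windows, and the others did not meet this rule.

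**Figure D3:**
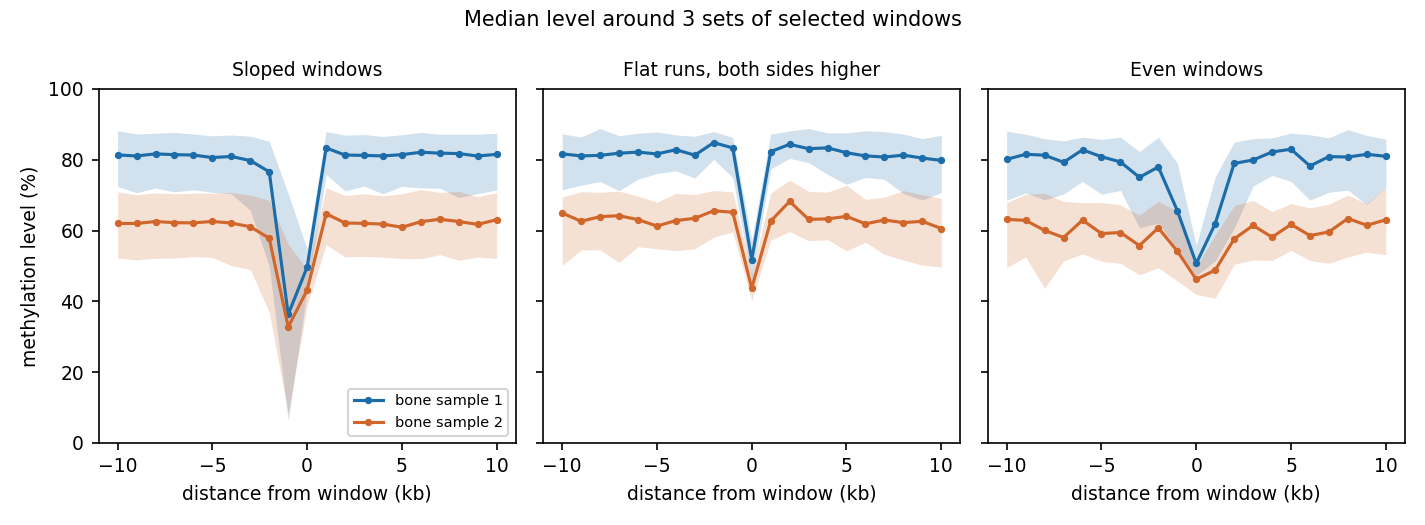
Median methylation level (line) and its quartiles (shading) in 1 kb windows from 10 kb before to 10 kb after the sloped windows (turned so that the higher part is on the right), the flat runs with both sides higher, and the even windows, in Bone 1 (blue) and Bone 2 (orange). The sloped windows were turned and the flat runs were chosen for higher sides, so the low left side of the former and the dip of the latter follow from this; the next windows of the even ones have medians of 65.6% and 61.9% in Bone 1.

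Few intermediate windows lay next to each other. They formed 1398 runs, of which 1350 were single windows, 44 held 2 windows, 3 held 3 and 1 held 5. Only 102 windows (7.02%) stood in a run of 2 or more. In the same way, 55.8% of the windows under 20%, 50.5% of those over 60% and 61.8% of dense windows of any level stood beside another of their class. A run is easier to form in a larger class, so these shares are set side by side without a test. Of the 102 windows in runs, 37 were sloped and 29 were flat, against 759 sloped among the 1350 single windows (56.2%). Of the 48 runs, 8 (16.7%) lay within 20 kb of a gene on a list of imprinted genes, beside 2.89% of the single intermediate windows and 1.41% of all dense windows. Runs near the same gene, as at GNAS, were counted apart.

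The sides of each run, taken as the 2 windows before and the 2 after it, were compared with the run in both samples. Both sides were higher by at least 10 points for 401 runs (28.7%), against 22.4% of all dense windows taken singly. One side was higher and the other lower for 267 (19.1%), against 2.18%. Both were lower for 26 (1.86%), against 1.45%. The other 697 met none of these rules, and 7 could not be read. A step from low to high across the run was thus the class furthest above its background. A window near 0 or 100% has no room for one side of such a step, so the background is no test of it.

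Imprinted genes are expressed from 1 parental copy. A list of 116 symbols of such genes, some of them names of the same gene, matched 98 genes on the autosomes of the gene table. Whether each of these is imprinted in cattle or in bone was not tested. Of the 98 genes, 39 had an intermediate window within 20 kb. The share of all genes with such a window was not counted, and 1 window could count for several listed genes. In all, 60 intermediate windows (4.13%) lay within 20 kb of a listed gene, in 47 regions, against 1.41% of all dense windows. Of the 798 dense windows there, 7.52% were intermediate, 162 lay under 20% and 403 lay over 60% in both samples. Of the remaining 10766 dense windows, 1.61% lay within this distance, but these windows were not matched to the intermediate ones in level. Of the 60, 21 were sloped and 18 were flat, and which of them lie in control regions was not tested.

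Intermediate windows differed in how evenly their sites were methylated. For each window, the standard deviation (SD) between its sites was computed net of the spread that counting alone gives, and a window was called even where it was under 10 points in both samples, a limit chosen after the values were seen. Only 46 of the 1452 windows (3.17%) were even, against 51.5% of all dense windows and 16.9% of the remaining 10766. Sites near 0 or 100% have little room to vary, and 70.2% of the windows under 20% and 53.1% of those over 60% were even. Of these 46, 17 (37%) lay within 20 kb of a listed imprinted gene, beside 4.13% of all intermediate windows and 1.41% of all dense windows. The share moved with the limit, as 11 of 20 even windows lay there at a limit of 5 points and 25 of 157 at 15 points. Windows of the same imprinted gene, as at GNAS and MEG3, were counted apart, so these windows came from fewer genes. Of the 46, 31 were flat. The low spread of even windows and the high spread of sloped ones given next follow largely from how each was defined, and they are a description. In Bone 1, 95.5% of their sites with at least 10 calls lay from 25 to 75%, and 0.0445% at or under 10%. In the sloped windows these shares were 36.1% and 22.0%. The median SD between sites was 2.55 points in the even windows of Bone 1 and 30.7 points in the sloped ones. In Bone 2 it was 0 and 23.1 points.

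**Figure D4:**
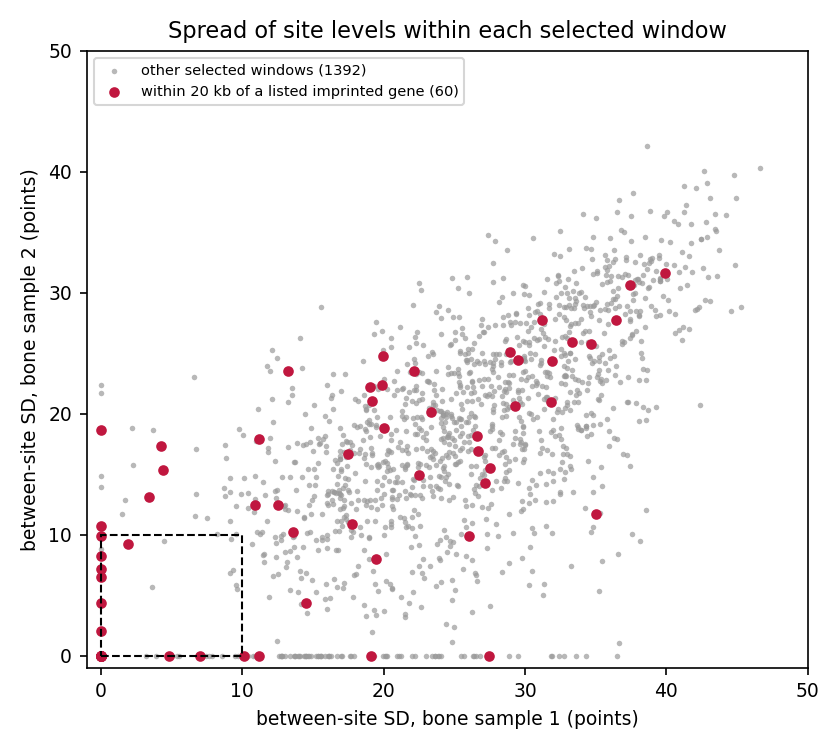
Standard deviation of methylation between the CpG sites of each intermediate window, net of counting error, in Bone 1 (x axis) and Bone 2 (y axis), in percentage points; the dashed box marks under 10 points in both. Red points are the 60 windows within 20 kb of a listed imprinted gene, of which 17 lie in the box with 29 others.

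An SD of 0 in both samples, which is also given where the estimate fell below 0, was found at 14 windows, and 8 of these lay near listed imprinted genes. They stood at PEG10, IGF2R, NNAT, MEG3 (2 windows) and GNAS (3 windows). The other 6 lay near OR2A69, TK2, IGFN1 and INPP5A, at chr8:2419001-2420000 and at chr27:89001-90000. The chr8 window had 83 calls in Bone 1, so its evenness rests on few reads. An SD of 0 did not exclude a difference along the window, since the parts differed by 24.9 points at IGF2R and by 30.1 points in the chr8 window in Bone 1. Evenness along a window was not evenness between its strands, whose levels differed by a median of 9.59 points in Bone 1 and 9.15 in Bone 2 over the 40 even windows with at least 50 calls on each strand.

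The longest run of intermediate windows was at MEG3, a maternally expressed long noncoding RNA of the imprinted DLK1-DIO3 domain. It covered 5 windows, chr21:65722001-65727000, with 261 CpG sites, and its end was 804 bp from the gene. The level was 54.8% in Bone 1 (95% Wilson interval 53.4 to 56.2%, 4837 calls) and 43.2% in Bone 2 (40.9 to 45.5%, 1781 calls), or 49% ± 8.22 (SD, n = 2). The windows lay from 51.1 to 59.7% in Bone 1 and from 38.1 to 54.5% in Bone 2. The flanks were higher, at 69.2% and 90% in Bone 1 and at 61.1% and 69.1% in Bone 2. None of the 5 windows was sloped in both samples, although in Bone 2 the right part of chr21:65723001-65724000 was 38.9 points above the left. The SD between sites was 0 points in 4 of the windows in Bone 1 and 17.5 in the last. In Bone 2 it was 0 points in 2 of the windows and 2.01, 16.7 and 18.7 in the others. On the plus and minus strand, the run was at 54.5% and 55.2% in Bone 1 and at 38.0% and 48.7% in Bone 2. The 2 samples differed by more than their counting intervals. Intervals here cover counting error only, and they are too narrow where 1 read makes several calls.

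NNAT, which encodes the small membrane protein neuronatin and is expressed from the paternal copy, lay in a run of 3 windows at chr13:66464001-66467000. Its level was 50% (48.4 to 51.6%) in Bone 1 and 40.1% (37.6 to 42.5%) in Bone 2, or 45.0% ± 7.03 (SD, n = 2). Its flanks stood at 83.0% and 80.1% in Bone 1 and at 66.1% and 58.1% in Bone 2. The middle window was even, at 50.8% and 43.6% with an SD of 0 points in both samples. The last window was sloped, its parts being 30.2 points apart in Bone 1 and 21.2 in Bone 2. The first window was neither sloped nor flat, so the run at NNAT had a flat, even core and less even ends.

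GNAS, which encodes the stimulatory G protein alpha subunit and has several imprinted promoters, had 9 intermediate windows in 5 regions. The one with most CpG sites was chr13:57485001-57487000, with 229 sites in 2 windows, at 57.3% (56.2 to 58.5%) and 47.1% (44.4 to 49.8%). This run stood beside an unmethylated flank, at 4.78% and 2.35%, and a methylated one, at 75.6% and 57.1%. Neither of its windows was sloped by the rule, although both rose toward the methylated flank, by 23.2 and 15.4 points in Bone 1 and by 13.8 and 10.6 in Bone 2. A run of 3 windows at chr13:57519001-57522000 was at 52.7% and 51.1%, and a run of 2 at chr13:57516001-57518000 was at 53.6% and 45.1%. Single even windows followed at chr13:57530001-57531000, at 58.1% and 57.6%, and at chr13:57532001-57533000, at 57.5% and 48.4%. The window that ended the run of 3, at chr13:57521001-57522000, was at 48.9% and 49.1% with an SD of 0 points in both samples. Of the 9 GNAS windows, 1 was sloped, at chr13:57519001-57520000, where the parts differed by 47.2 points in Bone 1 and 24.4 in Bone 2.

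The other runs at imprinted genes held 2 windows each. At PEG3, a paternally expressed zinc finger gene, chr18:64121001-64123000 was at 48.5% (46.8 to 50.2%) and 42.4% (39.0 to 46.0%), or 45.5% ± 4.29 (SD, n = 2). H19 is a maternally expressed noncoding RNA, and a run 3998 bp from it, chr29:49505001-49507000, was at 48.6% (46.4 to 50.9%) and 48.4% (44.8 to 51.9%), or 48.5% ± 0.188 (SD, n = 2). This was the closest agreement between the samples among these runs, and both of its windows were flat and even. At SNRPN, a paternally expressed gene of RNA splicing, chr21:1937001-1939000 was at 42% and 48.6%. None of these windows was sloped in both samples. In Bone 2 alone, the parts of 1 PEG3 window differed by 33.1 points and those of 1 SNRPN window by 24.3. The flanks of the PEG3 run were at 36.7% and 59.3% in Bone 1 and at 42.0% and 39.7% in Bone 2. At the H19 run they were at 78.6% and 61.0% in Bone 1 and at 53.9% and 51.3% in Bone 2. At the SNRPN run they were at 76.8% and 69.4% in Bone 1 and at 53.1% and 52.2% in Bone 2. None of these runs met the rule of both sides higher.

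Single intermediate windows marked several more imprinted genes. PEG10, a paternally expressed gene derived from a retrotransposon, held the even window with the most calls in Bone 1, chr4:12064001-12065000, at 51.8% (50.1 to 53.5%, 3442 calls) and 39.9% (36.5 to 43.5%, 741 calls). Its immediate sides were not both higher, at 52.6% and 35.1% in Bone 1 and at 28.4% and 47.8% in Bone 2. Its left and right parts differed by 0.0589 points in Bone 1 and 5.05 in Bone 2. All 67 of its sites with at least 10 calls in Bone 1 lay from 25 to 75%. At IGF2R, whose product clears the growth factor IGF2, a window inside the gene at chr9:96223001-96224000 was at 59.5% and 39.4%, or 49.5% ± 14.2 (SD, n = 2). Its sites were even, yet its parts differed by 24.9 points in Bone 1 and 10 in Bone 2. Its plus and minus strands also differed, being at 53.0% and 81.2% in Bone 1 and at 29.9% and 61.4% in Bone 2. MEST, a paternally expressed gene of the hydrolase family, had chr4:94250001-94251000 at 54.2% and 55.0%. NAP1L5, a paternally expressed gene within HERC3, had chr6:36082001-36083000 at 40.6% and 50.5%. DLK1, a paternally expressed inhibitor of fat cell formation, had an even window at chr21:65634001-65635000, at 46.7% and 45.9%. A window at MKRN3, at chr21:1160001-1161000, was flat at 50.6% and 39.7%, with an SD between sites of 12.5 points in each sample.

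Most windows near imprinted genes did not stay in the range when the strands were read apart. Of the 51 with at least 50 calls on each strand in both samples, 13 (25.5%) lay from 35 to 60% on both strands in both samples, beside 22.9% of all such intermediate windows. In Bone 1 the NNAT run was at 64.3% on the plus strand and 44.4% on the minus strand, and the H19 run at 44.3% and 61.8%. The GNAS window chr13:57532001-57533000 was at 60.2% and 22.4% there. At NAP1L5 the plus strand was at 37.1% and the minus strand at 100% of 58 calls. At MAGEL2, chr21:1208001-1209000, the strands were at 60.3% and 3.45% in Bone 1, the latter over 29 calls. In these windows the level over both strands depends on how the calls were shared between them.

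The stretches shown here are the longest that the files spell out in 6 regions near imprinted genes, on the plus strand, with each CpG in capitals. They show the local sequence in which the calls of these regions were made.
MEG3, chr21:65726437-65726450: cCGggCGCGggCGg
NNAT, chr13:66465540-66465552: gCGCGgCGggCGc
GNAS, chr13:57485199-57485220: tCGaCGgCGgCGgCGgCGcCGg
PEG10, chr4:12064061-12064070: tCGCGtcCGg
H19, chr29:49505049-49505060: gCGCGgcCGCGa
PEG3, chr18:64121945-64121959: gCGcCGCGgCGgCGg
In the GNAS stretch, 50.3% of 338 calls in Bone 1 and 42.6% of 54 calls in Bone 2 were methylated. The NNAT stretch was at 58.3% of 132 calls and 42.1% of 19, and the PEG10 stretch at 51.7% of 60 and 42.9% of 14. The H19 stretch was at 45% of 111 calls and 50% of 8. These 4 stretches were intermediate, as their regions were. The PEG3 stretch was lower, at 37% of 127 calls and 28% of 25. The MEG3 stretch lay in the window of its run that was least even in Bone 1, and it was at 30.5% of 59 calls and 6.67% of 15, well below the run as a whole.

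**Figure D5:**
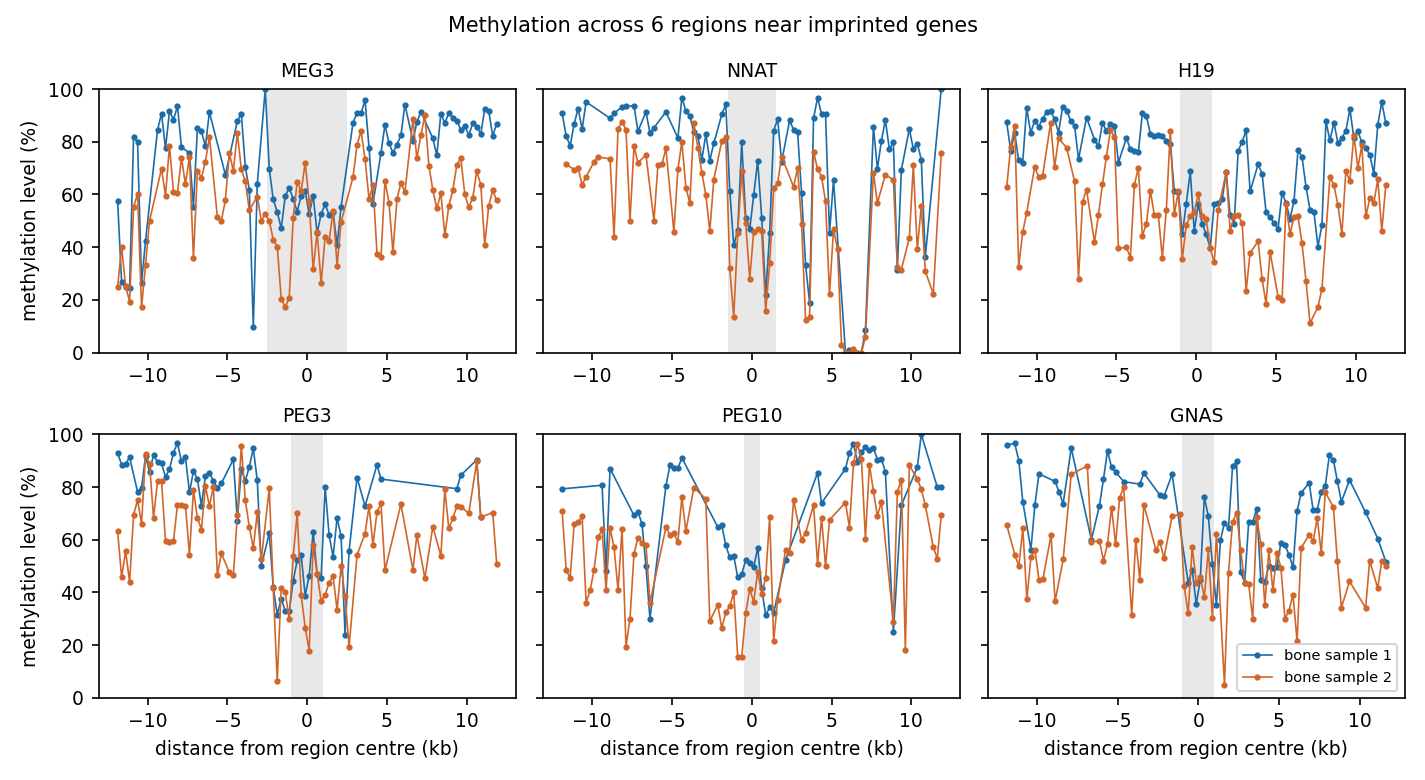
Methylation level in bins of 250 bp around 6 intermediate regions near imprinted genes, in Bone 1 (blue) and Bone 2 (orange). Each bin has at least 20 calls, and the bins run from 12 kb before to 12 kb after the centre of a region. Grey marks only the region at the centre, so other intermediate windows nearby, as at GNAS and H19, are not shaded. Inside the grey area at MEG3, the bins of Bone 1 lie from 40.8 to 69.7% with a median of 55.3%, against a median of 83.4% outside it. The GNAS region drawn is the run at chr13:57516001-57518000, not the one at chr13:57485001-57487000.

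Levels in bins of 250 bp inside these regions spread over ranges of different width. At MEG3, 19 bins lay from 40.8 to 69.7% in Bone 1 and from 17.2 to 72.1% in Bone 2. At PEG10, 4 bins lay from 49.6 to 56.9% and from 32.1 to 47.9%, and at H19, 8 bins lay from 39.7 to 68.7% and from 35.5 to 60%. At MEG3 and PEG10 the bins of Bone 2 spread over a wider range than those of Bone 1, and at H19 they did not. In each of the other 3 regions the range in at least 1 sample was wider than that of MEG3 in Bone 1. At NNAT, 12 bins ran from 22% to 84% in Bone 1 and from 13.6 to 68.9% in Bone 2. At PEG3, 8 bins ran from 38.8 to 63.0% and from 17.9 to 70%, and at GNAS the bins ran from 35.6 to 76.1% and from 30.5 to 57.4%. The GNAS region drawn was not the run at chr13:57485001-57487000, whose first flank was at 4.78% in Bone 1. No bin outside the drawn GNAS region lay under 35.1% in Bone 1, while in Bone 2 the lowest bin outside it was at 5%. Outside the regions, within 12 kb of their centre, the median bin of Bone 1 was at 83.4% for MEG3, 80% for PEG10 and 79.9% for H19. The bins outside take in other intermediate windows nearby, as at GNAS and H19. At H19 the median bin of Bone 2 was 51.1% inside and 53.0% outside, a difference of few points beside the 35.5 to 60% of the bins inside.

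Further windows near the genes already named were not even by the rule. A second one at H19, chr29:49511001-49512000, was at 53.7% and 37.5%, and its parts differed by 1.92 points in Bone 1 and 30.8 in Bone 2. At DLK1, chr21:65625001-65626000 was at 50.5% and 42.5%, between flanks of 28.0% and 6.84% in Bone 1, and so was higher than both. A window 17253 bp from PEG3, chr18:64140001-64141000, was at 51.9% and 47.8%, and one 14804 bp from MEG3, chr21:65712001-65713000, was at 51.7% and 38.5%. None of these 4 windows was sloped in both samples.

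At other listed genes the intermediate window was a slope. A window 234 bp from BEGAIN, a gene of the DLK1-DIO3 domain, at chr21:65469001-65470000, rose by 63.9 points in Bone 1 and 55.2 in Bone 2, and one inside the gene, at chr21:65436001-65437000, fell by 38.6 and 23.8. PHLDA2, a maternally expressed regulator of placental growth, had chr29:48690001-48691000, which rose by 60.1 and 27.3 points. A window 3529 bp from IGF2, the insulin-like growth factor, at chr29:49426001-49427000, rose by 56.1 and 47.5 points. These slopes had the same direction in both samples, as the rule requires.

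KCNQ1, a potassium channel gene, named 5 windows, inside it or within 20 kb, that lay at 36.3 to 58.9% in Bone 1 and at 35.1 to 46.9% in Bone 2. Those at chr29:48747001-48748000, chr29:48827001-48828000, chr29:49081001-49082000 and chr29:49137001-49138000 were sloped, and the one at chr29:49095001-49096000 was not. Next to it, CD81 had a window at chr29:49214001-49215000 that fell by 51.6 and 30.6 points, and TSSC4 had one at chr29:49192001-49193000 that fell by 56.6 and 45.3. TSPAN32 had sloped windows at chr29:49252001-49253000 and chr29:49264001-49265000. Most of these windows on chromosome 29 were thus slopes.

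Near OSBPL5, sloped windows lay at chr29:48431001-48432000, named by MRGPRG, at chr29:48453001-48454000 and at chr29:48473001-48474000. The other sloped windows near listed genes were chr1:139431001-139432000 near GET1, chr21:1208001-1209000 at MAGEL2, chr21:66495001-66496000 at DIO3 and chr24:19742001-19743000 at CELF4. They lay from 40.6 to 58.8% in Bone 1 and from 47.9 to 52% in Bone 2. Windows that were not sloped by the rule were chr29:49310001-49311000 near ASCL2, chr14:3211001-3212000 at TRAPPC9, chr29:48741001-48742000 near CDKN1C, chr26:25585001-25586000 near PAOX and named by SPRN, chr21:65967001-65968000 near MEG9, and a second one at CELF4, chr24:19817001-19818000, which had the fewest calls of these in Bone 1. Their levels ran from 37.1 to 57.7% in Bone 1 and from 38.3 to 45.9% in Bone 2. The window at COBL, chr4:4802001-4803000, was even at 59.8% and 48.2%.

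The runs described here are the 4 of over 2 windows and, of the 44 runs of 2, the 6 with the most CpG sites. Of these 10, 6 were not near a listed imprinted gene. A run of 3 windows at OPLAH, which encodes an enzyme of glutathione turnover, at chr14:765001-768000, was at 52.0% and 42.2%, and its first window differed by 50.9 and 34.0 points between its parts. A run of 2 at CLDN7, a tight junction protein, at chr19:26971001-26973000, was at 49.8% and 40.2%. Its second window was sloped, rising by 36.6 points in Bone 1 and 42.0 in Bone 2. A run beside GMDS, an enzyme of GDP-fucose synthesis, at chr23:51606001-51608000, was at 46.7% and 48.7%. Its 2 windows had SDs between sites of 12.6 and 11.8 points in Bone 1 and of 0 and 16.8 in Bone 2. In some other runs the parts of neighbouring windows moved in opposite directions. At GRIN2D, a glutamate receptor subunit, named after its values were seen, the first of 2 windows fell by 74.5 and 38.4 points and the second rose by 70 and 51.3, so that their low parts met at the border between them.

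The other 3 of these runs lay in the clustered protocadherins of chromosome 7. Within 5 kb of the 7 genes that the gene table names PCDHA, PCDHB or PCDHG, 15 of 60 dense windows (25%) were intermediate. They made up 1.03% of the intermediate windows, against 0.106% of all dense windows. Only 7 of the 60 lay under 20% and 2 over 60% in both samples. The runs were chr7:51896001-51898000 at 53.7% and 45.7%, chr7:51931001-51933000 at 41.6% and 39.5%, and chr7:52345001-52347000 at 51.0% and 47.7%. The first 2 lay within the gene listed as PCDHA13, and the third was 3288 bp from PCDHB11.

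The protocadherin windows were mostly flat by the rule, but none of them was even. Their site SDs lay from 11.2 to 20.3 points in Bone 1, with a median of 16.1, so none was even there. They also changed little from left to right, by a median of 7.23 points in Bone 1, and by 11.5 points in Bone 2, where 1 of the 15 had no calls in one part. In Bone 1, 80.9% of their sites with at least 10 calls lay from 25 to 75%, and 3.73% lay at or under 10%. The only sloped one was chr7:52054001-52055000, which rose by 33.7 and 47.1 points. Calls per site in these windows were a median of 1.67 times those of dense windows with like numbers of sites in Bone 1 and 1.14 times in Bone 2. The clusters hold many similar sequences, and the part of reads placed on another copy in these levels was not tested. The stretches shown here lie in the protocadherin runs and are given for their high CpG content, with each CpG in capitals.
PCDHA13, chr7:51896998-51897016: gCGCGCGCGaCGCGggCGt
PCDHA13, chr7:51932194-51932212: gCGCGtgCGaCGCGggCGt
PCDHB11, chr7:52346298-52346320: gCGgCGgcCGCGgCGcCGgcCGa
The first of the PCDHA13 stretches was at 66.0% of 188 calls in Bone 1 and 52.4% of 21 in Bone 2, while the second was at 33.3% of 24 calls and had no call in Bone 2. The PCDHB11 stretch was at 44.8% of 105 calls and 50% of 32.

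Flat runs between higher sides numbered 82, and none of them was near a gene of the imprinted list. Of all dense windows 1.41% lay there, and of the 235 flat intermediate windows 18 (7.66%). The 82 runs were also chosen for their higher sides. Their absence near the list was not tested and is not read as a difference. The MEG3 and NNAT runs had higher sides too, but not every window of them was flat. The median level of the 82 flat runs was 51.7% in Bone 1 and 43.7% in Bone 2, between next windows at 83.3% and 82.3% in Bone 1. The one with most calls in the sample with fewer was inside FER1L4, of the ferlin family, at chr13:64831001-64832000, at 40.2% and 48.8% between sides of 88.9% and 78.4% in Bone 1. It was also even, with SDs of 4.49 and 9.46 points. TK2, a mitochondrial thymidine kinase, held an even window at chr18:34200001-34201000, at 55.0% and 43.2%. Other flat windows were uneven from site to site. At FAM53B, chr26:44328001-44329000 was at 59% and 55.2% with SDs of 27.1 and 24.1 points, and at DND1, a germ cell RNA-binding protein, chr7:51802001-51803000 was at 42.3% and 37.2% with SDs of 16.3 and 21.3. Of the 10 with most calls, those at chr13:33566001-33567000 and chr2:121534001-121535000, with no named gene, had SDs of 18.4 and 20.7 points in Bone 1. The 2 windows of the run at chr6:115077001-115079000, also with no named gene, had SDs of 16.9 and 20.5 points there. Those at SHROOM1 (chr7:44416001-44417000), ZBED3 (chr10:8235001-8236000) and FTMT (chr7:31984001-31985000), at 43.5%, 57.6% and 48.4% in Bone 1 and at 45.5%, 36.9% and 35.1% in Bone 2, had SDs from 10.2 to 18.7 points in Bone 1. A flat average therefore did not mean that each site was intermediate, and 31 of the 235 flat windows (13.2%) were even.

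The 29 even windows that were not near a listed gene were named after their values were seen. At INPP5A, an inositol phosphatase, chr26:50954001-50955000 was at 47.1% and 53.6%, with SDs of 0 points. At IGF1R, the receptor of insulin-like growth factors, chr21:7996001-7997000 was at 54.3% and 46.6%, with 72 sites and SDs of 6.91 and 0 points. PADI2, an arginine-modifying enzyme, had chr2:135510001-135511000 at 45.7% and 43.5%, and UQCC2, an assembly factor of the respiratory chain, had chr23:7814001-7815000 at 47.2% and 38.3%. Others lay at IQSEC1, MYO6, ATG5, SCARF1, ANGPT2 and PTPRN2. The windows next to all 46 even ones, those near listed genes included, were at medians of 65.6% and 61.9% in Bone 1 and of 54.2% and 48.8% in Bone 2.

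Ends of genes were counted near the windows of each shape, with no test between shapes. The gene table gives no strand, so an end of a protein-coding gene, start or finish, was looked for within 1 kb of each window. One was found for 380 intermediate windows (26.2%), against 38.2% of all dense windows, 71.8% of those under 20% and 12.6% of those over 60%. The share was 31.8% for the sloped windows, 18.3% for the flat and 26.1% for the even. In the remaining 10766 dense windows it was 26.1%, near that of the intermediate ones. Where a single gene end lay within 1 kb of a sloped window, the higher part was on the side of the gene body in 84 of 198 (42.4%). This share mixes starts and finishes of genes and was not counted for other dense windows, so no direction is read from it. Inside protein-coding genes lay 975 windows (67.1%), against 77% of all dense windows. The last 2 Mb of the autosomes held 431 (29.7%), against 22.4% of dense windows, and the first 2 Mb held 61 (4.2%), against 4.35%. By chromosome, the share of dense windows that were intermediate ran from 1.5% on chromosome 8 to 3.51% on chromosome 7, which holds the protocadherins, and 3.46% on chromosome 18.

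Lists of tissue and family genes gave few intermediate windows, and the background here is the share of all dense windows near a list. Within 5 kb of germ cell genes (0.0793%), 1 of 45 dense windows was intermediate, and it was sloped, with PANX2 as its nearest named gene. None of 21 was intermediate near osteoblast genes (0.037%), none of 19 near cartilage genes (0.0335%) and none of 3 near fat cell genes (0.00529%). Near blood and marrow genes (0.03%) it was 1 of 17, at SPI1, the master regulator of myeloid cells. This window, chr15:77215001-77216000, was flat at 35.7% and 44.7%. These counts are too small to set beside the 2.56% of all dense windows. HOX genes (0.294%) had 4 of 167, or 2.4%, and genes named ZNF (1.51%) had 20 of 859, or 2.33%. These shares lie near the 2.56% of all dense windows. Of the HOX windows, 2 lay nearest HOXD3 and 2 nearest HOXB9, and the one at chr2:20760001-20761000 was at 58.5% and 58.4%.

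The letters around a CpG went with its level inside the intermediate windows, with differences of a few points. Relative to the level of their own window, sites read as ACGT differed by -5.83 points in Bone 1 and -5.71 in Bone 2. Those read as CCGG differed by -3.04 and -2.55 points. Sites in GCGA or its reverse complement TCGC were 4.77 and 4.64 points higher. These 3 differences had the same sign in both samples. In windows over 60%, ACGT sites differed by -5.41 and -6.9 points, CCGG sites by -0.134 and 0.00092 points, and GCGA sites by 1.34 and 1.49 points.

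The plus strand of the intermediate windows was 48.5% methylated in Bone 1 and 44.5% in Bone 2, and the minus strand 50.5% and 45.1%. The 2 strands of a window often differed by more than this. Of the 1302 windows with at least 50 calls on each strand in both samples, 298 (22.9%) lay from 35 to 60% on both strands in both samples. The median difference between the strands was 14.8 points in Bone 1 and 9.91 in Bone 2 over these 1302 windows. It was 18.7 and 10.5 points in the sloped windows and 8.69 and 9.80 in the flat ones. Reads of the 2 strands can lie at different places of a window, and whether this gave the difference was not tested.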

How the data were processed

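Per the labels, 2 bone samples of 1 group were sequenced as WGBS libraries. The authors trimmed and mapped the reads with Bismark, removed duplicates and deposited counts without normalization, giving for each CpG cytosine how often it was read as methylated and as unmethylated. The submitters' processing notes name FastQC 0.11.5, Trim Galore 0.4.5, Bowtie2, Bismark 0.19.0 and ARS-UCD1.2, while the methods of the paper name another build. Both strands were summed into CpG sites, and windows of 1 kb on chromosomes 1 to 29 were formed. The total calls were 582241763 and 440334436. Members and gene lists were chosen with earlier results of these data known. Regions named are the 10 longest runs (ties by CpG sites), the 10 most deeply read flat runs with both sides higher, every window within 20 kb of a listed imprinted gene, the 5 steepest sloped windows and those nearest the level limits. Any other region was named after its values were seen, such as the even windows.

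Gene names come from RefSeq's table for ARS-UCD2.0, with no conversion of coordinates. The CpG density of the files was highest within 1 kb of its gene ends in 244 of 244 segments of 10 Mb, over 29 autosomes. Coordinates are those of the files. The table has no strand, so gene ends replace the planned gene starts. Sequences were spelled from the trinucleotide contexts of neighbouring CpG cytosines. The between-site SD is a moment estimate net of binomial spread, set to 0 where negative. Fisher's exact test was tested on simulated data. The software was matplotlib 3.10.9, pandas 2.3.3, numpy 2.4.6, scipy 1.17.1 and pyarrow 21.0.0 under Python 3.11.15.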

Additional observations from a re-analysis of the deposited data

How the results depend on the processing

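Of 59 alternatives over 10 results, 24 stayed within 1.5 times the count reported, and of the 43 that keep both samples, 23 did. The causes of the changes were not tested beyond what each alternative takes in or leaves out. With at least 30 CpG sites, 3496 windows were intermediate and 290 stood in runs, and with at least 60, 336 and 14. With levels of 40 to 60% there were 939 and 42, and with 30 to 65% 2755 and 288. Letting windows with at least 20 CpG sites join gave 203 windows in runs. A limit of 10 points left 123 flat windows. Sides differing by at least 20 points left 143 runs with both sides higher and 106 with one of each, and sides of 5 kb gave 125 of the latter. Of the windows near imprinted genes, 18 remained as flat windows only and 39 without sloped windows. Gene ends inside the window numbered 130, and those within 5 kb 690. Limits of 5 and 15 points on the between-site SD gave 20 and 157 even windows, of which 11 and 25 lay near imprinted genes. The alternatives on this SD, on windows of very many calls and on the shape of windows near imprinted genes were chosen after seeing the data.

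Using 1 sample alone, without Bone 2 or without Bone 1, gave 2628 to 7745 intermediate windows, 286 to 1680 of them in runs. Of these windows, 1882 to 2944 were sloped, 572 to 3834 were flat and 81 to 162 lay near imprinted genes. Both sides were higher for 1178 to 1658 runs, and 737 to 834 had one of each. For even windows, only the SD was taken from 1 sample. In this way, 77 to 257 of the 1452 windows intermediate in both samples were even. Larger numbers came from Bone 2 in each case. No paired analysis was possible because there is only 1 group.

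Depth limits single sites in Bone 2, at a median of 6.60 calls per site, and calls that share a read make all intervals and tests too narrow.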
